A study of Rattus norvegicus with 20 samples.

Results

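The comparison set the liver of rats on 10% food restriction for 1 week against the liver of rats on 5% restriction for the same time. It covered 4 arrays of the 20 in the series, all those titled 1w-10 or 1w-5. Each side was 1 pool of RNA from 5 male Wistar rats, an outbred laboratory strain, and each pool was run on 2 arrays. The 10% pool and the 5% pool differed in the amount of diet given and in no other label. Both were labelled as 6 weeks old and, per the series' design text, both went 16 h without food before dissection. The sources used here do not say at what hour the livers were taken or what intake the percentages refer to. The other pools were at 20% and 30% restriction and on full feeding (labelled C or none) at 1 week, and at the same 5 levels at 1 month, labelled as 9 weeks old. All probe sets that are not array controls were considered, 15866 in number. Of these, the upper 60% by mean signal, 9520 probe sets standing for 7056 named genes, entered the comparison.

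The liver switches between storing and releasing fuel. After feeding, insulin drives the enzymes that turn sugar into fatty acids and triglycerides, partly through the transcription factor Srebf1. In fasting, glucocorticoids, glucagon and Ppara, a receptor activated by fatty acids, favour fatty acid oxidation and glucose release. Feeding time also sets the phase of the hepatic clock, whose output factors Dbp, Hlf and Tef drive many enzymes of drug and steroid metabolism. The liver is also the main source of hepcidin, the hormone encoded by Hamp, which lowers iron release into the blood.

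Both arrays of a pool carried the same RNA, so there was 1 sample a side and no p-value can be given for this comparison. Differences are means of log2 signal, 10% minus 5%, after quantile normalization, and the SE beside them covers the spread between arrays alone, not between rats. In bulk liver, fewer cells of a type and less RNA per cell cannot be told apart. The 10% arrays correlated with each other at r = 0.97, and the 5% arrays at r = 0.95, over the tested probe sets. Correlations between an array of one pool and an array of the other ran from 0.95 to 0.96, so the 5% arrays were no more alike than arrays of different pools. At least a 2-fold gap lay between the 2 arrays at 310 probe sets in the 10% pool and at 643 in the 5% pool. The 3′ to 5′ ratio of the GAPDH control probe sets, a measure of RNA integrity, was 1.48 and 1.505 on the 10% arrays and 1.57 and 1.39 on the 5% arrays. Albumin, the defining product of hepatocytes, was the brightest gene at the top of the scale on all 4 arrays.

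A probe set was called where the pool means lay at least 2-fold apart and both arrays of one pool lay above both arrays of the other. By that rule 147 probe sets (1.54% of those tested) were higher in the 10% pool and 74 (0.777%) were lower. With the signals as deposited, which were higher in the 10% pool by a median of 0.49 on the log2 scale, the split was 602 higher and 13 lower. Calls were mostly of dim probe sets. They made up 9.24% of the probe sets with a mean signal under 16 units and 0.388% of those at 128 units or more. In 101 of the probe sets called higher the 5% pool lay under 11.7 units, the lowest mean signal tested, and in 37 of those called lower the 10% pool did. Among the brighter 6347 probe sets, the upper 40% by signal, 28 (0.441%) were higher and 12 (0.189%) lower. A gap of 2-fold or more between the 2 arrays of the same pool occurred at 15 of these brighter probe sets in the 10% pool and at 79 in the 5% pool.

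**Figure D1:**
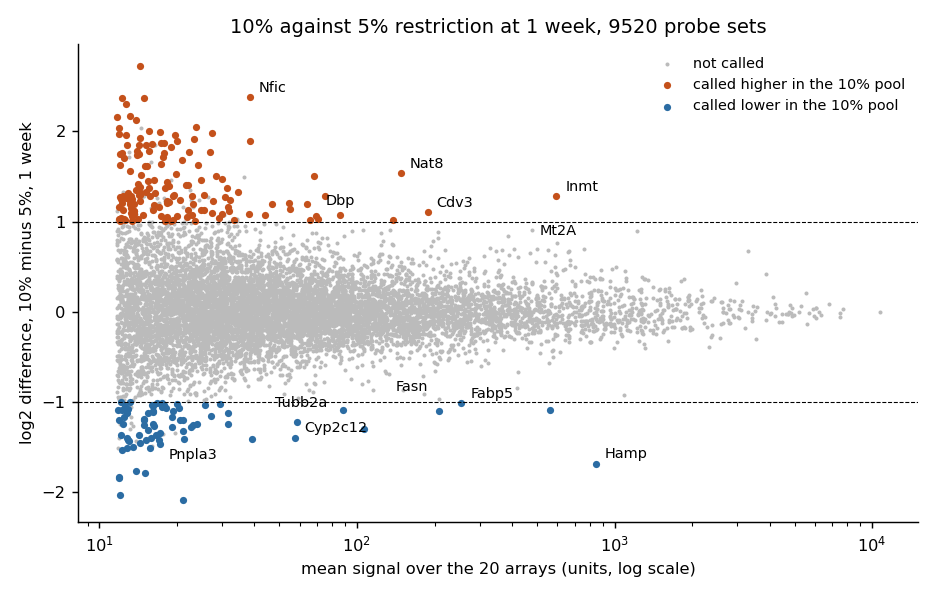
Log2 difference of each of the 9520 probe sets between the 10% and 5% pools at 1 week (vertical axis, pool means) against its mean signal over the 20 arrays (horizontal axis, log scale). Dashed lines mark 2-fold, and coloured points were called. Most called points sit at the dim end, and Hamp and Inmt are called at high signal.

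Hamp, which encodes hepcidin, showed the largest called difference among probe sets with a mean signal of 128 units or more. Its signal was 339.6 and 319 units on the 10% arrays, against 1026 and 1095 units on the 5% arrays. The groups did not overlap, and the 10% pool was 3.22-fold lower (-1.69 ± 0.06 on the log2 scale, array SE, 2 arrays a pool). The pool at 20% stood at 366 units and the pool at 30% at 81.9 units, while the unrestricted pool stood at 1203 units, so the 5% pool was close to the unrestricted one. At 1 month Hamp was 1526 and 1611 units in the 10% pool and 1337 and 1243 units in the 5% pool, a difference of 0.28 in the other direction.

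Hepcidin is induced by bone morphogenetic protein (BMP) signalling through Smad proteins and by inflammation through Stat3. The window around the Hamp start site is shown because Hamp led the comparison and because its core BMP-responsive element is a defined motif. The RefSeq window on GRCr8 is chr1:95300222-95300521, minus strand, running from 250 bases before the start to 50 after it. Capitals mark GGCGCC, searched on both strands (the motif is its own reverse complement), and the match begins 129 bases before the start.
Hamp: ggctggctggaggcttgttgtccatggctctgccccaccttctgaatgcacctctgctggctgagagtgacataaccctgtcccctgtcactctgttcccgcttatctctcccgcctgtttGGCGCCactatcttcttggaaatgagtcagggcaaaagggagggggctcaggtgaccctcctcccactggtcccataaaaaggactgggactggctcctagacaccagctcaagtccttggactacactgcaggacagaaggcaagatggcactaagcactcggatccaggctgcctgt
The same 6 letters occur in 11.8% of the 27457 promoter windows of the table, and a match is not evidence of binding.

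Of the 14 measured genes of iron, heme and hepcidin, 1 was called higher and 1 lower (1.47% and 0.751% over all genes), with a median difference of -0.04. The gene called higher was Id1, a BMP target that encodes an inhibitor of helix-loop-helix factors. Its signal was 23.3 and 25.4 units in the 10% pool, against 10.1 and 12.4 units in the 5% pool. The mean of the 5% pool was under the lowest mean signal tested, so the 10% pool was at least 2.02-fold higher. Id2, a related inhibitor, was not called and was lower without overlap, at 313 and 366 units against 613 and 607 units (-0.85 ± 0.11). Smad6 and Smad7, feedback inhibitors of BMP signalling, differed by 0.26 and 0.22, and Bmp6, a ligand of the pathway, by -0.03. The arrays of the pools overlapped for Smad6 and Bmp6. Stat3 stood at 109 and 123 units in the 10% pool and 183 and 150.5 units in the 5% pool (-0.52 ± 0.17), although a second probe set for it differed by -0.0009. Slc40a1, the iron exporter that hepcidin acts on, and Tfrc, the transferrin receptor, differed by -0.05 and -0.10. Alas1, the first enzyme of heme synthesis, was 472 and 442 units in the 10% pool, against 285 and 343 units in the 5% pool (0.55 ± 0.14).

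Genes of fatty acid and triglyceride synthesis were lower in the 10% pool as a group. Of 24 measured members, 22 lay below 0 and 17 were lower on both 10% arrays than on both 5% arrays, while 0 were higher in that way. The median difference was -0.29, against -0.0025 over all 7056 genes, of which 22.5% were lower without overlap. Relative to the shift of all probe sets, the median was -0.25 with the signals as deposited. Median centring only moves each array by a constant, so it must give the same value and is no second check. Only Pnpla3 and Gpam were called, both lower (0.751% over all genes).

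Pnpla3, a lipid droplet protein under Srebf1 control, stood at 19.7 and 22.5 units on the 10% arrays, against 54.2 and 63.0 units on the 5% arrays (2.78-fold lower, -1.47 ± 0.15). Gpam, which begins triglyceride synthesis at the mitochondrion, was 16.5 and 21.6 units in the 10% pool and 35.1 and 42.2 units in the 5% pool (-1.03 ± 0.24). For both genes, both 10% arrays lay under both 5% arrays, at signals under 64 units. Fasn, the fatty acid synthase, missed the 2-fold rule at 249 and 270.3 units in the 10% pool, against 484 and 531 units in the 5% pool (-0.97 ± 0.09). Its second probe set differed by -0.80.

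Acly, which makes cytosolic acetyl-CoA, was 452 and 438 units in the 10% pool and 722 and 694 units in the 5% pool (-0.67 ± 0.04). Pgd, an NADPH-forming enzyme of the pentose phosphate pathway, differed by -0.70 ± 0.07, and Acaca, the acetyl-CoA carboxylase, by -0.42 ± 0.14. Srebf1 itself was 301 and 283 units in the 10% pool, against 424 and 362 units in the 5% pool (-0.42 ± 0.12). Mlxipl, a glucose-responsive factor that also drives these enzymes, differed by -0.56 ± 0.03. Scd, the stearoyl-CoA desaturase, was close to level at 2368 and 2414 units in the 10% pool and 2478 and 2905 units in the 5% pool (-0.17 ± 0.12). Elovl6, a fatty acid elongase, overlapped between the pools.

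Along the diet levels at 1 week Fasn and Acly were lower at each further level. Fasn was 1191 units without restriction, then 507, 259, 70.0 and 47.9 units at 5, 10, 20 and 30%. Acly was 1447 units without restriction, then 708, 445, 241 and 203 units. Other members turned, such as Gpam, at 18.9 units at 10% and 20.1 units at 20%, and Thrsp, a lipogenic nuclear protein, at 1860 units at 10% and 1944 units at 30%. At 1 month the same step gave -1.35 for Fasn and -0.62 for Acly. The 10% pool of Pnpla3 was then under the lowest mean signal tested, at least 1.45-fold lower than the 5% pool. Gpam differed in the other direction at 1 month, by 0.35.

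**Figure D2:**
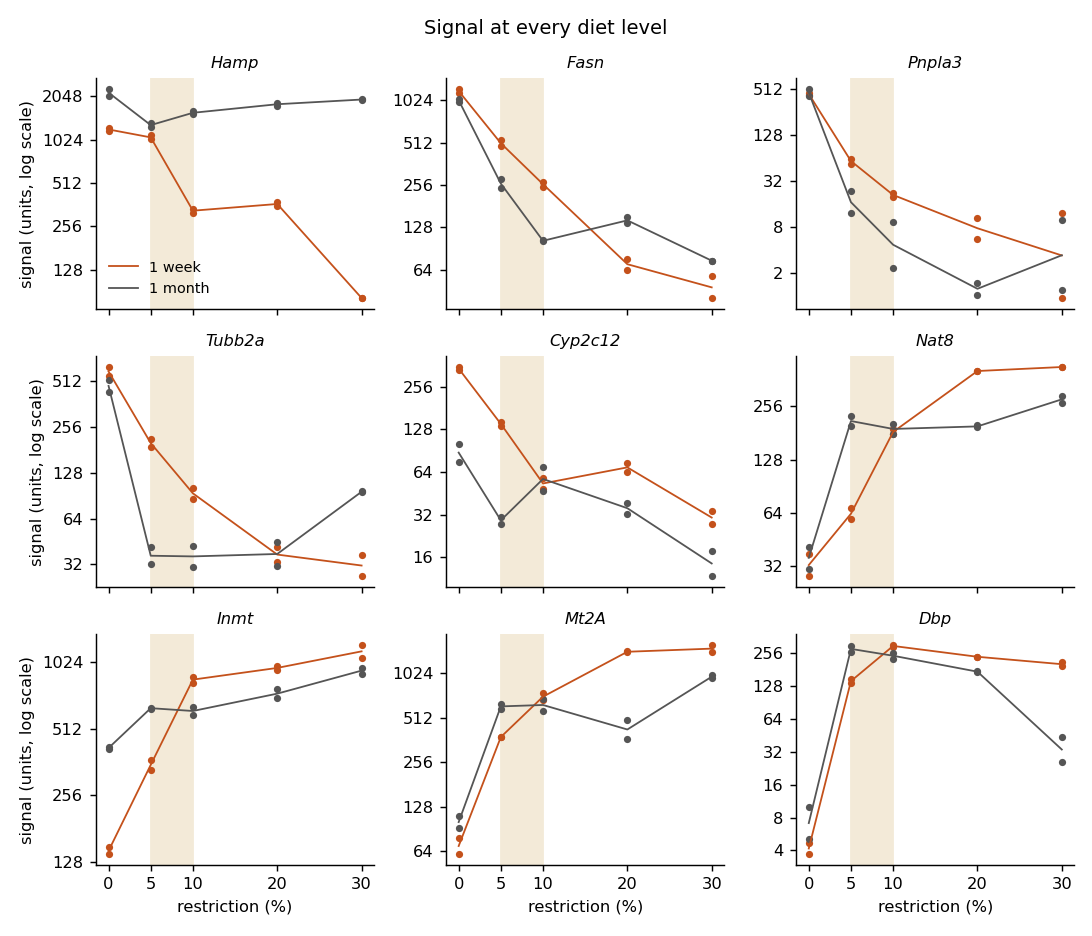
Signal of 9 genes (vertical axes, log scale) at each restriction level (horizontal axis, percent) at 1 week (orange) and 1 month (grey), with points for arrays, lines through pool means and the step from 5% to 10% shaded. Fasn, Pnpla3 and Tubb2a are lower at each further level up to 20% at 1 week, and Hamp at 1 month lacks the low values of the 1 week pools.

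Fabp5, a fatty acid-binding protein, was lower at 172 and 207 units in the 10% pool, against 339.6 and 431 units in the 5% pool (2.03-fold lower, -1.02 ± 0.22). At 1 month it differed by -0.95, with 151 and 176 units in the 10% pool and 289 and 345 units in the 5% pool. A probe set for which no gene is listed behaved alike at both durations. It gave 92.5 and 101 units in the 10% pool and 261 and 217 units in the 5% pool, a difference of -1.30 at 1 week and -1.01 at 1 month.

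Genes of cholesterol synthesis and uptake showed no calls among 19 measured, with a median of -0.07. Insig1, an endoplasmic reticulum protein that restrains Srebf processing, was 111 and 139 units in the 10% pool, against 175 and 185 units in the 5% pool (-0.54 ± 0.17). It differed by 0.99 in the other direction at 1 month. Fdps and Dhcr7, enzymes of sterol synthesis, differed by -0.41 ± 0.09 and -0.38 ± 0.04.

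Among other genes called lower, Tubb2a, a beta-tubulin, was 101 and 86.6 units in the 10% pool, against 213 and 188 units in the 5% pool (-1.10 ± 0.15). It stood at 591 units without restriction and at 37.1 units at 20%. Cyp2c12, in the rat a female-predominant steroid hydroxylase, was 48.9 and 57.8 units in the 10% pool and 136 and 144 units in the 5% pool (-1.40 ± 0.13). The male-predominant Cyp2c11, Cyp2c13 and Cyp2a2 were near level, at -0.03, -0.01 and 0.02, and their arrays overlapped. Cytochrome P450 genes of this family are close in sequence, so their signals may be shared. Of 16 measured sex-biased liver genes 1 was called lower, Cyp2c12, and 1 higher, Sult2a6 (1.19 ± 0.39). Over all genes 0.751% were called lower and 1.47% higher. The median of the list was -0.01, and without overlap 5 were higher and 3 lower, against 21.5% and 22.5% over all genes. Slc6a6, the taurine transporter, was 18.5 and 18.8 units in the 10% pool, against 41.0 and 47.6 units in the 5% pool (-1.25 ± 0.11).

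Of 16 measured cell cycle genes, 5 were called lower and 1 higher, and the median difference was -0.40. Over all genes 0.751% were called lower and 1.47% higher. Except for Tubb2a, the called members stayed under 64 units on all 4 arrays. Tk1, the thymidine kinase of dividing cells, was 16.9 and 23.3 units in the 10% pool, against 45.5 and 61.9 units in the 5% pool (-1.42 ± 0.32), and its second probe set differed by -0.48 without being called. Birc5, or survivin, had its 10% pool under the lowest mean signal tested and was at least 1.42-fold lower. Cdkn1a, a cell cycle inhibitor, was under that level in both pools, so it gets no fold. Ccnb2, a mitotic cyclin, was 13.1 and 14.3 units in the 10% pool and 26.3 and 30.6 units in the 5% pool (-1.05 ± 0.13). Mcm2, a replication helicase subunit and the member called higher, had its 5% pool under the lowest mean signal tested and was at least 1.22-fold higher. Pcna, Ccnd1 and Cdkn1b, which were brighter, differed by 0.10, 0.23 and 0.22. Kupffer cell and macrophage markers moved the same way as these genes. Of 9 measured, 7 were lower without overlap (22.5% over all genes) and 0 were called, with a median of -0.33. The summed signal of these markers was 769 and 706 units in the 10% pool and 905 and 958.5 units in the 5% pool. C1qb, a complement subunit of macrophages, differed by -0.81 ± 0.30 and Clec4f, a Kupffer cell lectin, by -0.45 ± 0.12. Their part in the cell cycle values was not tested.

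Genes of drug metabolism were higher in the 10% pool as a group. Of 33 measured, 25 lay above 0 and 3 were called higher (1.47% of all genes). Without overlap 20 were higher and 5 lower, against 21.5% and 22.5% over all genes. The median was 0.23, and also 0.23 relative to the shift of all probe sets with the signals as deposited. Nat8, which acetylates cysteine conjugates on the way to mercapturates, was 189 and 177.5 units in the 10% pool, against 68.1 and 58.7 units in the 5% pool (2.90-fold higher, 1.54 ± 0.12). Its signal was 32.4 units without restriction, 405 units at 20% and 427 units at 30%.

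Inmt, which methylates indole amines, was 881 and 828 units in the 10% pool, against 369 and 335 units in the 5% pool (2.43-fold higher, 1.28 ± 0.08). Adh4, an alcohol dehydrogenase, was 87.0 and 76.6 units in the 10% pool and 35.6 and 35.3 units in the 5% pool (1.20 ± 0.09). That Nat8, Inmt and Adh4 were higher on each 10% array follows from the rule by which they were called. Sult2a6, a hydroxysteroid sulfotransferase, was 85.7 and 61.9 units in the 10% pool and 25.8 and 39.5 units in the 5% pool (1.19 ± 0.39).

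Fmo1, Aldh1a1 and Por missed the 2-fold rule but did not overlap between the pools. Fmo1, a flavin monooxygenase, was 321 and 289.9 units in the 10% pool, against 176 and 155 units in the 5% pool (0.89 ± 0.12). The pools were also apart for Aldh1a1, which oxidises retinal, at 364 and 361 units in the 10% pool and 212 and 199.5 units in the 5% pool (0.82 ± 0.05). Por, the reductase that feeds electrons to all microsomal P450 enzymes, was 457 and 492.5 units in the 10% pool and 297 and 295.5 units in the 5% pool (0.68 ± 0.05). At 1 month Nat8, Inmt and Fmo1 were near level, at -0.15, -0.04 and 0.01.

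**Figure D3:**
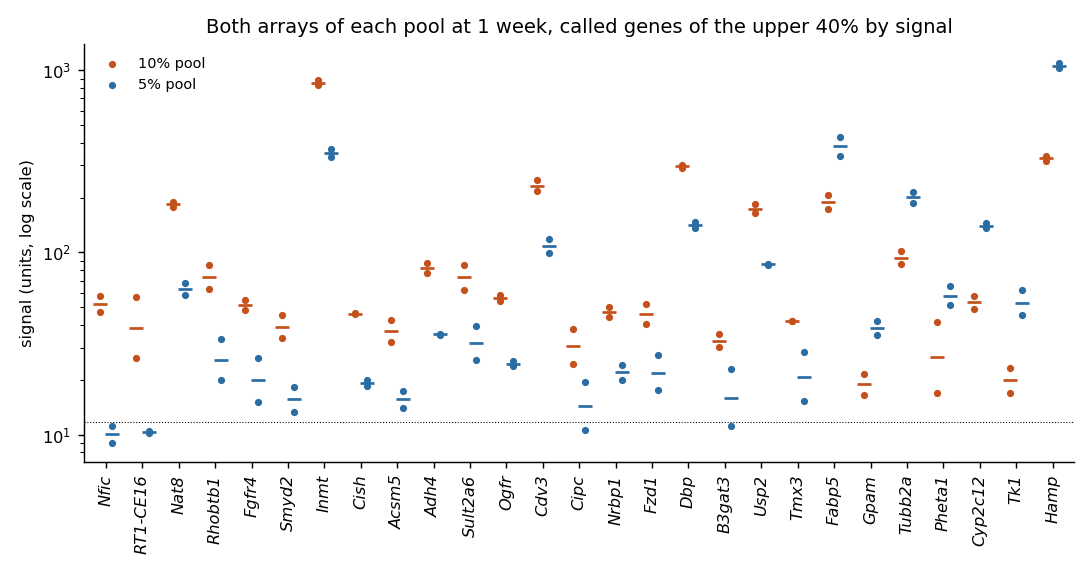
Signal on both arrays of each pool at 1 week (points, log scale) and pool means (dashes) for 27 called genes of the upper 40% by signal, 10% pool left of 5% pool for each gene and genes ordered by difference. The dotted line is the lowest mean signal tested, and the 5% pool lies under it for Nfic and RT1-CE16.

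Of 15 measured clock genes 2 were called higher and 0 lower (1.47% and 0.751% over all genes), with a median of 0.29. Dbp, an output factor of the clock, was 289.9 and 302 units in the 10% pool, against 147 and 136 units in the 5% pool (2.10-fold higher, 1.07 ± 0.06). Its pool without restriction stood at 4.17 units, under the lowest mean signal tested, and the pools at 20% and 30% stood at 236 and 202 units. Usp2, a deubiquitinase with a daily rhythm, was 165 and 183 units in the 10% pool and 86.7 and 85.2 units in the 5% pool (1.02 ± 0.07), and a second probe set differed by 0.60.

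Hlf, which belongs with Dbp to the PAR bZIP factors, was 49.7 and 49.8 units in the 10% pool, against 27.1 and 26.9 units in the 5% pool (0.88 ± 0.01). Nr1d2, a nuclear receptor of the clock's second loop, was 202 and 194 units in the 10% pool and 124 and 139 units in the 5% pool (0.59 ± 0.09), and its other probe sets differed by 0.70 and 0.56. Its close relative Nr1d1 was near level and overlapped, at 0.06 ± 0.24. Clock, an activator of the core loop, differed by -0.60 ± 0.39, and by -0.23 at its second probe set. Its partner Bmal1 had its 10% pool under the lowest mean signal tested and was at least 1.14-fold lower. Cry2, a repressor, differed by 0.29 ± 0.08, and by 0.97 at a dimmer second probe set. Per2 overlapped between the pools. Cipc, a protein that binds Clock and is outside the list, was called higher at 24.4 and 38.2 units in the 10% pool, against 10.6 and 19.5 units in the 5% pool (1.09 ± 0.55). The sampling hour was not analysed here. At 1 month Dbp differed by -0.21 and Hlf by -0.35.

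The list of glucocorticoid, metallothionein and stress response genes had the highest median of the 25 pathway lists, 0.36. That median was the value of Per1, whose arrays overlapped between the pools (0.36 ± 1.73). With values under 11.7 units raised to that level the list's median was 0.29, beside 0.28 for the clock genes. Of 15 measured genes 11 lay above 0. Without overlap 7 were higher and 2 lower, against 21.5% and 22.5% over all genes. In this list 0 were called higher, and the only one called lower was Cdkn1a, dim in both pools. Mt2A, a metallothionein that binds zinc and copper and is induced by metals and glucocorticoids, was 749 and 671 units in the 10% pool, against 380 and 376.5 units in the 5% pool (0.91 ± 0.08). Its signal ran from 69.3 units without restriction to 1427 units at 20% at 1 week. Dusp1, a phosphatase of MAP kinases, was 437 and 445 units in the 10% pool and 270.5 and 226 units in the 5% pool (0.83 ± 0.13). Tat, the tyrosine aminotransferase, differed by 0.65 ± 0.22 and Tsc22d3, a glucocorticoid-induced factor, by 0.55 ± 0.07. For these 2 genes the unrestricted 1 week pool lay above the 10% pool. Tat stood at 354 against 218 units and Tsc22d3 at 173 against 101.5 units. Fkbp5 and Sgk1, also of the list, differed by -0.09 ± 0.29 and -0.15 ± 0.11. Mt1, a second metallothionein, was dim and overlapped between the pools.

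The Mt2A window is shown because metallothionein genes carry metal response elements, the sites of the zinc-sensing factor Mtf1, and Mt2A was the brightest gene of its list to come near the 2-fold rule. It is chr19:10838659-10838958 on GRCr8, minus strand, from RefSeq. Capitals mark TGCNCNC on either strand, with 5 matches. This pattern is looser than the core of the element, TGCRCNC (R is A or G). The match GAGGGCA, which reads TGCCCTC on the other strand, does not meet that core.
Mt2A: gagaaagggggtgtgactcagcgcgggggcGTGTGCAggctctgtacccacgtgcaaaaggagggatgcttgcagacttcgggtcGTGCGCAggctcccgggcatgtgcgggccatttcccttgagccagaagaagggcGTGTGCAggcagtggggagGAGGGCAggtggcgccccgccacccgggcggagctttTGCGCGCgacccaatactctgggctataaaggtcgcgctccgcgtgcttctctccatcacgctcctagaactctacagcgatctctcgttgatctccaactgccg
At least 1 match of the looser pattern occurs in 50.1% of the 27457 windows, and 5 or more in 0.652%.

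Genes of fatty acid oxidation and ketogenesis lay slightly higher in the 10% pool. Of 33 measured, 25 lay above 0, with a median of 0.17. Without overlap 19 were higher and 4 lower, against 21.5% and 22.5% over all genes. Called higher were 2 (1.47% over all genes). The 2 called were dim. Cd36, a fatty acid uptake protein, was 36.8 and 51.1 units in the 10% pool, against 19.5 and 8.27 units in the 5% pool (1.77 ± 0.66). Ppara had its 5% pool under the lowest mean signal tested and was at least 1.31-fold higher. Brighter members missed the 2-fold rule with small array error. Ech1, an auxiliary enzyme of beta-oxidation, was 769.5 and 743 units in the 10% pool, against 452 and 440.4 units in the 5% pool (0.76 ± 0.03). Cyp4a1, a fatty acid omega-hydroxylase and Ppara target, was 1043 and 1036 units in the 10% pool and 659 and 648 units in the 5% pool (0.67 ± 0.01). Cpt1a, which admits long-chain fatty acids to mitochondria, differed by 0.49 ± 0.08 and Ehhadh, a peroxisomal oxidation enzyme, by 0.69 ± 0.12. The other way went 8 members, among them Pdk4, which spares pyruvate in fasting. Pdk4 was 37.7 and 41.1 units in the 10% pool and 61.2 and 56.5 units in the 5% pool (-0.58 ± 0.08). Angptl4 and Plin2 were also lower, by -0.55 ± 0.10 and -0.26 ± 0.04, and Fgf21 was near level at 0.12 ± 0.27. Acsm5, a medium-chain acyl-CoA synthetase outside the list, was called higher at 32.1 and 42.4 units in the 10% pool, against 14.03 and 17.3 units in the 5% pool (1.24 ± 0.25).

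Bile acid synthesis and transport had 18 measured genes, of which 0 were called, with a median of 0.18. Without overlap 12 were higher and 1 lower, against 21.5% and 22.5% over all genes. Abcg5, a sterol exporter, came nearest at 72.6 and 87.1 units in the 10% pool, against 43.5 and 37.9 units in the 5% pool (0.97 ± 0.16). Cyp7a1, which catalyses the first step from cholesterol to bile acids, was 108 and 116 units in the 10% pool and 86.7 and 61.4 units in the 5% pool (0.62 ± 0.25). Cyp8b1, which sets the cholic acid share, was 1092 and 1167 units in the 10% pool and 813 and 831 units in the 5% pool (0.46 ± 0.05). Akr1d1, a steroid reductase of the pathway, differed by 0.47 ± 0.10. Fgfr4, the hepatic receptor for a gut hormone that restrains Cyp7a1, was called higher at 48.0 and 55.0 units in the 10% pool, against 15.04 and 26.3 units in the 5% pool (1.37 ± 0.42).

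In the insulin, growth hormone and Igf axis 3 of 20 measured genes were called higher (1.47% over all genes) and 0 lower, with a median of 0.04. Cish, a feedback inhibitor induced through Stat5, was 45.7 and 46.4 units in the 10% pool, against 19.9 and 18.4 units in the 5% pool (1.27 ± 0.06). It stood at 80.6 units at 20% and at 14.3 units at 30%, so it held no single direction with diet level. Pik3r1, a regulatory subunit of phosphoinositide 3-kinase, was 34.4 and 30.9 units in the 10% pool and 24.2 and 7.36 units in the 5% pool, a wide gap between the 5% arrays (1.29 ± 0.86). Irs1, an insulin receptor substrate, had its 5% pool under the lowest mean signal tested and was at least 1.66-fold higher. Igf1, the main circulating growth factor of this axis, was 1910 and 2068 units in the 10% pool and 2267 and 2213 units in the 5% pool (-0.17 ± 0.06). Igfbp1, an Igf-binding protein that insulin represses, was near level, at 204 and 198 units in the 10% pool and 215 and 178 units in the 5% pool (0.04 ± 0.14), and its difference at 1 month was 1.08 on the log2 scale. Gckr differed by -0.57 ± 0.08, and Pck1, an enzyme of glucose release, by 0.17 ± 0.20 with overlap. G6pc1 was not tested.

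The remaining calls among brighter genes were mostly higher in the 10% pool. Cdv3 was 249 and 216 units in the 10% pool, against 118 and 98.7 units in the 5% pool (1.11 ± 0.16). Ogfr, the opioid growth factor receptor, was 53.9 and 58.1 units in the 10% pool and 25.3 and 23.8 units in the 5% pool (1.19 ± 0.07). Rhobtb1 was 84.9 and 62.9 units in the 10% pool and 19.9 and 33.3 units in the 5% pool (1.51 ± 0.43). Smyd2, a lysine methyltransferase, Nrbp1, Fzd1, a Wnt receptor, B3gat3, a proteoglycan linker enzyme, and Tmx3, an oxidoreductase of the endoplasmic reticulum, were higher by 1.01 to 1.33. Pheta1 was called lower at -1.13 ± 0.68, while its second probe set differed by 0.25 in the other direction.

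Nfic, a nuclear factor, and RT1-CE16, a class I histocompatibility gene, had a 5% pool under the lowest mean signal tested. Nfic was 57.9 and 46.9 units in the 10% pool, against 8.99 and 11.2 units in the 5% pool, at least 4.47-fold higher. Its other 1 week pools lay at 28.3 to 51.4 units, so the 5% pool stood apart from all of them. RT1-CE16 was 26.2 and 56.7 units in the 10% pool, against 10.2 and 10.5 units in the 5% pool, at least 3.30-fold higher, and belongs to a gene family of near-identical members, so its signal may be shared.

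Hand2 and Trpv6 also had a 5% pool under that level and were at least 2.45-fold and at least 2.34-fold higher. With a 10% pool under it, Cend1 was at least 3.36-fold lower, and Drp2, Bcl2 and Lcnl were at least 2.41-fold, 2.10-fold and 1.97-fold lower. The largest other dim falls were of Kank3, Htr1b, Gpr182, Pla2g10, Zfp575, Dph2 and B4galt2, between -1.41 and -1.21, and the largest other dim rises of Lenep, Fbxo21 and Edc4, between 1.28 and 1.51. Lenep rested on 1 array, since the 5% arrays gave 5.15 and 29.2 units, against 34.3 and 35.5 units in the 10% pool.

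**Figure D4:**
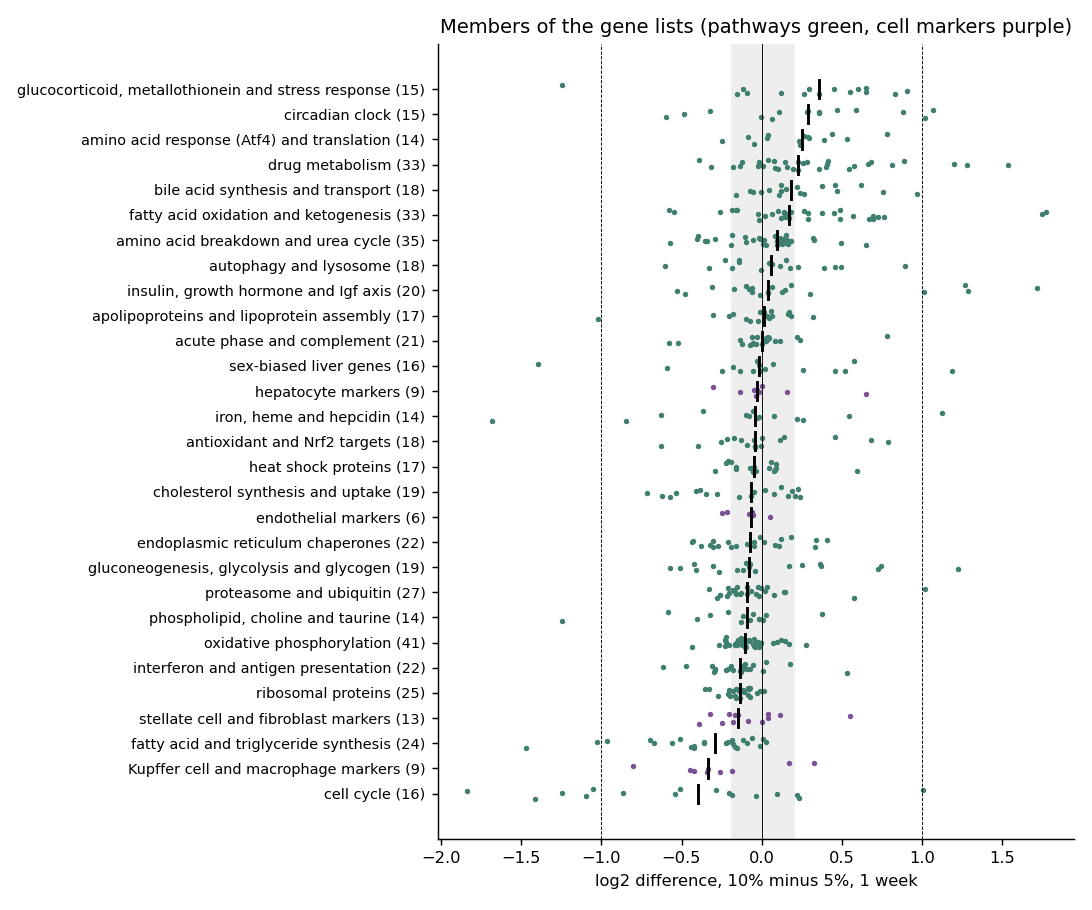
Log2 differences between the 10% and 5% pools at 1 week (horizontal axis) for the measured members of the 29 gene lists with at least 5 of them, whose number stands in parentheses. Black bars are medians, dashed lines mark 2-fold, and the grey band runs from the 25th to the 75th percentile of all genes, -0.18 to 0.20. Fatty acid synthesis and cell cycle members lie mostly left of 0 and drug metabolism members mostly right of it.

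In the other lists few genes or none were called. Ribosomal proteins lay below 0 in 24 of 25 measured genes and oxidative phosphorylation in 35 of 41, with medians of -0.13 and -0.10 and 0 called in either. Relative to the shift of all probe sets with the signals as deposited these medians were -0.11 and -0.07. Genes of the amino acid response had a median of 0.25 with 0 of 14 called, and amino acid breakdown and the urea cycle 0.09 with 0 of 35 called. Interferon and antigen presentation genes had a median of -0.13, with 8 of 22 lower without overlap (22.5% over all genes) and 0 called, beside the lower Kupffer cell markers given above. The lists of endoplasmic reticulum chaperones, heat shock proteins, acute phase and complement, antioxidant targets, gluconeogenesis and glycolysis, and autophagy had 0 called and medians from -0.08 to 0.06. Single calls belonged to the lists of the proteasome (Usp2), the apolipoproteins and lipoprotein assembly (Fabp5) and phospholipid, choline and taurine (Slc6a6).

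The markers of the other cell types had 0 called, as those of the Kupffer cell did. Hepatocyte markers had a median of -0.03 over 9 genes, stellate cell markers -0.15 over 13, and endothelial markers -0.07 over 6. Only 1 lymphocyte marker of 15 and 2 bile duct markers of 7 were above the signal filter, and 0 neutrophil markers of 7 were. Hbb, a marker of red blood cells, was 1943 and 1545 units in the 10% pool and 1864 and 1803 units in the 5% pool.

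The same step from 5% to 10% was measured at 1 month in pools that share no array with those at 1 week. There 77 probe sets (0.809%) were called higher and 80 (0.84%) lower. Of the 147 probe sets called higher at 1 week, 2 were called higher and 4 lower at 1 month, and of the 74 called lower, 3 were called lower and 3 higher. The sign was the same at both durations for 68 of the 147 and 30 of the 74, against 49.1% of all tested probe sets. Across the 9520 probe sets the differences at 1 week and 1 month correlated at r = -0.06, given as a description, since probe sets share arrays and are not independent.

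**Figure D5:**
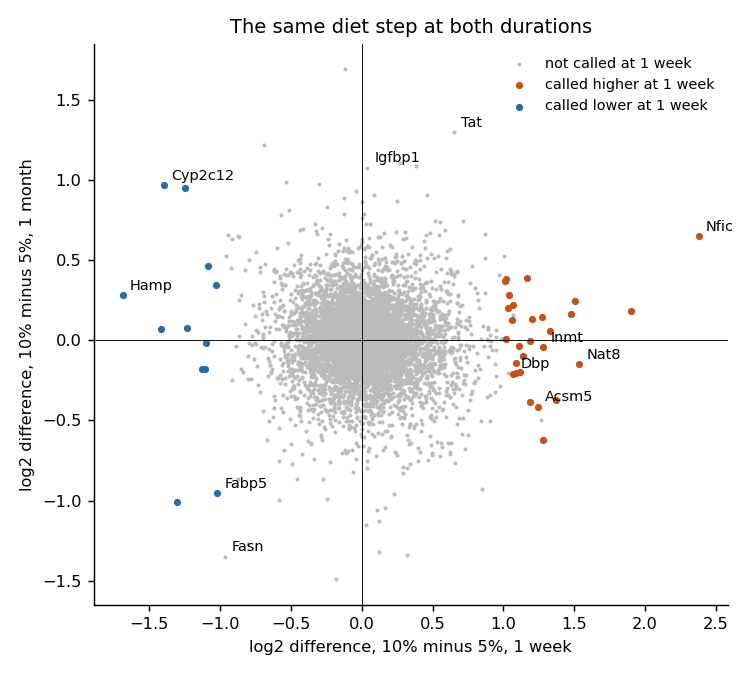
Log2 difference between the 10% and 5% pools at 1 week (horizontal axis) and at 1 month (vertical axis) for the 6347 probe sets of the upper 40% by signal. Fasn and Fabp5 lie low on both axes, while most probe sets called at 1 week (coloured) lie near 0 at 1 month.

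A test of the step was possible only over both durations together, with limma on the 10 pools (diet level and duration as factors, 4 residual degrees of freedom). It found 0 of 9520 probe sets past the adjusted threshold of 0.05 (0%), and 240 at an unadjusted p under 0.05, where 476 are the number a threshold of 0.05 gives by itself. The smallest p among higher genes belonged to Slc2a1, a glucose transporter, at 2.12 ± 0.36 (SE, n = 10 pools; limma p = 0.000162, adjusted p = 0.999). The mean of its 5% pool was under 11.7 units at both durations, at 1 month through 1 array of 1.21 units beside one of 19.1 units. With values under that level raised to it, the differences were 0.84 at 1 week and 0.73 at 1 month. Tat differed by 0.98 ± 0.23 and Cyp8b1 by 0.49 ± 0.11 in the same fit, with an adjusted limma p of 0.999 for both. The smallest p among lower genes belonged to C7h8orf33 (-0.87 ± 0.19), Ifi27l2b (-0.38 ± 0.10) and Ndufv2, a subunit of respiratory complex I (-0.38 ± 0.10), with an adjusted limma p of 0.999 for each.

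With only the 4 pools at 5% and 10% in the fit, which leaves 1 residual degree of freedom, 5 probe sets passed. These were both probe sets of Fasn (-1.16 ± 0.14 and -1.04 ± 0.16, limma adjusted p = 0.00216 and 0.0128), Fabp5 (-0.99 ± 0.13, adjusted p = 0.00307), the probe set with no gene listed (-1.16 ± 0.15, adjusted p = 0.00307) and Tat (0.98 ± 0.15, adjusted p = 0.0114). Over the 12 settings tried, the adjusted limma p of Fasn ran from 0.00216 to 1.00, that of Fabp5 from 0.00307 to 1.00 and that of Tat from 0.0114 to 1.00.

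The neighbouring steps at 1 week were counted by the same rule. The first step, 5% against no restriction, called 176 probe sets higher (1.85%) and 184 lower (1.93%). The next, 20% against 10%, called 57 higher (0.599%) and 97 lower (1.02%), and 30% against 20% called 78 higher (0.819%) and 135 lower (1.42%). These steps share pools with each other, so only their own counts are given. By calls the step from 5% to 10%, with 221, came second of the 4. With the signals as deposited it came first, with 602 and 13 calls, against 338, 151 and 463 in the 3 neighbouring steps. The SD of the log2 differences over all tested probe sets was 0.40 for 10% against 5%, 0.47 for 5% against no restriction, 0.36 for 20% against 10% and 0.39 for 30% against 20%.

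The other 1 week pools place the called levels. Of the 147 probe sets called higher, the 20% pool lay nearer to the 10% pool than to the 5% pool for 126 (85.7%), and the unrestricted pool did for 97 (66.0%). Over all tested probe sets these shares were 61.0% and 46.4%. Of the 74 called lower, the 20% pool lay nearer to the 10% pool for 44 (59.5%) and the unrestricted pool for 25 (33.8%). Among the 28 called higher in the upper 40% by signal the unrestricted pool lay nearer to the 10% pool for 13 (46.4%), the share seen over all tested probe sets. Choosing probe sets for a low 5% pool itself favours such nearness. Among the 12 called lower in the upper 40% by signal the unrestricted pool lay nearer to the 10% pool for 1 (8.33%). These shares were not counted over all probe sets of the upper 40%. The unrestricted pools of Nfic and Ogfr stood near the 10% pool, at 51.4 and 57.0 units. For Nat8, Inmt, Adh4, Mt2A and Usp2 the unrestricted pool lay beyond the 5% pool, in the same order as the diet levels.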

How the data were processed

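Liver RNA was measured on Affymetrix rat arrays, 1 pool of 5 rats a condition and 2 arrays a pool. Each probe set has a linear intensity, deposited by the authors and computed in MAS5 (per the submitters' processing notes). The sources used here give no version, scaling target or genome build, and detection calls were not used here. For the work here, 32 zeros took the lowest positive value of the array they were on, all 20 arrays were quantile normalized, log2 was taken, and 57 control probe sets were left out. The upper 60% by mean log2 signal was kept.

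Pool means were tested with limma 3.58.1 under R 4.3.3 (lmFit, eBayes with trend, two-sided, Benjamini-Hochberg over 9520 probe sets), and the code was checked on simulated data. The number of arrays limits the precision. The 2 arrays of a pool had equal deposited values at 126 probe sets (10%) and 122 (5%), so neither was a copy. Values under 11.7 units were raised to that level for folds written as at least.

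Of the tested probe sets, 8120 had 1 gene in the platform annotation, 245 several and 1155 none. The brightest probe set stood for its gene, and 0 symbols changed through the gene identifier. Promoters are RefSeq windows on GRCr8, 1 a symbol, 27457 in all.

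The comparison, the 25 pathway lists, the 9 marker lists and the naming rule were chosen with earlier results of these data known. Named were the 12 largest called rises and falls with both pools above the lowest level, 4 each way with 1 pool under it, up to 4 called members of a list, the 3 smallest limma p each way, and a standing set of 32 genes, of which 29 were measured. List members given for context, the other called genes of the upper 40%, and the probe set with no gene listed were named after their values were seen. Alternatives covered scaling, signal filter, low values, size of a call, single arrays and pools. Columns of per-sample values not used numbered 0.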

Additional observations from a re-analysis of the deposited data

Results flagged for a closer look

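For 10 of 53 called named genes the step from 5% to 10% ran in opposite directions at 1 week and 1 month. The arrays of the pools were apart at both durations. Cdkn1a, under the lowest mean signal tested in both 1 week pools, is not among the 10. Over all tested probe sets the sign was the same at both durations for 49.1%. The share of all probe sets that also had arrays apart at both was not counted. The difference between the durations was not tested, as each has 1 pool a level. On the log2 scale, the 1 week step less the 1 month step was -1.97 for Hamp, -2.37 for Cyp2c12, -1.49 for Tk1, 1.66 for Acsm5 and 1.28 for Dbp. The same quantity was -2.93 for Cend1, -2.35 for Kank3, -2.08 for Pla2g10, 1.95 for Fbxo21 and 1.63 for Irs1. With values under the lowest mean signal tested raised to it, these were -2.58, -2.001, -2.02, 1.93 and 1.28. Cend1 and Irs1 had a pool under that level, so theirs are not exact differences. At 1 month itself the step was 0.28 for Hamp, 0.97 for Cyp2c12, -0.415 for Acsm5, -0.21 for Dbp and only 0.07 for Tk1. Tk1 was thus close to level at 1 month. Groups of 2 arrays are too small for a check of single outlying arrays.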

How the results depend on the processing

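Against 147 probe sets called higher and 74 lower, the counts were 602 and 13 with the signals as deposited, 757 and 766 with no filter on low signal, 28 and 12 in the upper 40% by signal, 56 and 35 with low values raised, and 511 and 333 at 1.5-fold. Leaving out 1 array gave 185 to 315 higher and 137 to 174 lower, and the cause was not tested. Without the 5% array numbered 2 it was 315 and 164, without that numbered 1 it was 243 and 140, without the 10% array numbered 1 it was 226 and 174, and without that numbered 2 it was 185 and 137. Median centring (145 and 71), quantile normalization of the 4 arrays alone (140 and 67) and dropping the overlap condition (187 and 90) stayed within 1.5 times. Hamp, Inmt, Nat8, Dbp, Adh4, Cish, Acsm5, Ogfr, Rhobtb1, Smyd2, Nfic and RT1-CE16 were called under every alternative. With the signals as deposited, which shift the median by 0.49, 17 of 53 called named genes lost their call, among them Pnpla3 (-0.98), Tubb2a (-0.52), Fabp5 (-0.45) and Cyp2c12 (-0.84). With median centring, which shifts it by 0.13, 5 did. The limma count of 0 became 2 with the signals as deposited (Slc2a1, Nfic), 5 with only the 4 pools at 5% and 10%, and 2 without the 10% pool of 1 week (Rpl37a, Lpin1), and stayed 0 otherwise. The cause was not tested. With low values raised, an alternative chosen after seeing the data, the 157 calls of the 1 month step became 36, and the 360, 154 and 213 of 5% against no restriction, 20% against 10% and 30% against 20% became 177, 57 and 66. The last became 463 with the signals as deposited. No paired analysis was possible because array numbers mark repeats of 1 RNA pool and pair nothing across pools.

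Each side was 1 pool on 2 arrays, so nothing here measures the spread between rats or pools. Signal near background limits most calls.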

Other observations

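Slc2a1, the glucose transporter Glut1, had its lowest pool means of all 10 pools at 5%, at 1 month through 1 array. It stood at 20.8 units in the 10% pool and 5.68 units in the 5% pool at 1 week, and at 24.8 units in the 10% pool and 4.81 units in the 5% pool at 1 month, where the 5% arrays gave 1.21 and 19.1 units. The unrestricted pools stood at 26.7 units at 1 week and 15.4 units at 1 month. Tat, which begins tyrosine breakdown, was 869 and 922 units in the 10% pool at 1 month, against 352 and 375 units in the 5% pool, beside the smaller difference at 1 week. Igfbp1 was 144 and 137.5 units in the 10% pool at 1 month and 73.4 and 60.6 units in the 5% pool.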
